A study of Mus musculus with 16 samples.

Results

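CD11c-eYFP+ cells sorted from the ischemic hemisphere of the mouse brain were compared with microglia sorted from control brain. The libraries were chosen by their labels alone: the 4 libraries of CD11c-eYFP+ cells from the ischemic ipsilateral hemisphere and the 4 control libraries of CX3CR1+ microglia, 8 of the 16 libraries of the series. All 16345 genes that passed a filter on low counts were tested, of 50600 in the deposited table. The series set infiltrating CD11c cells beside microglia to find genes that mark each population. Its other libraries were 4 of microglia from the ischemic hemisphere and 4 of splenic CD11c cells. Values of ischemic microglia are given beside some of the main ones. All 16 libraries entered the count filter, the scaling and the shared estimate of the spread, so a gene counted mainly in spleen could be tested. With the 8 libraries of the contrast alone, 14324 genes were tested.

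The CD11c cells came from Tg(Itgax-Venus)1Mnz mice, in which the promoter of Itgax, the gene of the integrin chain CD11c, drives a yellow fluorescent protein. Both microglia groups came from CX3CR1CreERT2:Rosa26-tdT mice, in which the Cx3cr1 locus drives an inducible Cre recombinase that switches on a red fluorescent protein. All mice were males of 13 to 14 weeks. Brain tissue was dissociated with enzymes, myelin was removed on a Percoll gradient, and cells were sorted by their reporter without antibody staining. Mouse line, sorted population and ischemia all changed together between the groups, so their contributions cannot be told apart. Not given in the sources used here were the time after ischemia, the handling of the control animals and the number of animals per library. The p-values therefore measure only the spread between these libraries, which may be technical, and in sorted bulk RNA fewer cells of a type and less RNA per cell cannot be told apart.

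Microglia are the resident macrophages of the brain parenchyma. They depend on signalling by CSF1R and TGF-beta, and in healthy tissue they hold a sensing programme marked by P2ry12, Tmem119 and Sall1 with little MHC class II. Dendritic cells carry CD11c, take up antigen and show it to T cells on MHC class II. Monocytes that enter injured brain through the receptor CCR2 can also gain CD11c, and so can activated microglia, so a reporter driven by Itgax can label cells of several origins.

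Promoter sequences are shown for members of 2 gene groups on which the results turn, MHC class II presentation and the interferon response. They had the largest increases of their list among members in the promoter table, where Ciita and H2-Ab1 had no entry. Each is the 250 bases before the gene start, from RefSeq on GRCm38.p6, written along the strand of the gene. Capitals mark a match, on either strand, to CTGATTGG, the Y box bound by NF-Y, in the first 2 and to GAAA, 2 bases of any kind and GAAA again, the core of an interferon response element, in the last 2, with that of Rsad2 read on the opposite strand.
H2-Eb2: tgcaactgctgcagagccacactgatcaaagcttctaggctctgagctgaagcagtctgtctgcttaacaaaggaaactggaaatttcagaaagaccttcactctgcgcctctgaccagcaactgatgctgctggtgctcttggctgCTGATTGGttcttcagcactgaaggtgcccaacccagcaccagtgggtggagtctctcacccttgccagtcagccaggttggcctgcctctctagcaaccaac
H2-Eb1: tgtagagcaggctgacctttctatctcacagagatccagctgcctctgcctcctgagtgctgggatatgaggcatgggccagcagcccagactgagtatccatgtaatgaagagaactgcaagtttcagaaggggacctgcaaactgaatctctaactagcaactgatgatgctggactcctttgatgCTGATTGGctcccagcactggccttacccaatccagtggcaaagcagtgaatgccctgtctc
Rsad2: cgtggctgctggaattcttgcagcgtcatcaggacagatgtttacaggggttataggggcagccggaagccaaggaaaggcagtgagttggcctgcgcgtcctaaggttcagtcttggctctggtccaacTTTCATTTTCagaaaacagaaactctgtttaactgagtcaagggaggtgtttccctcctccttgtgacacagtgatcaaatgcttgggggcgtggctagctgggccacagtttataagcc
Oas3: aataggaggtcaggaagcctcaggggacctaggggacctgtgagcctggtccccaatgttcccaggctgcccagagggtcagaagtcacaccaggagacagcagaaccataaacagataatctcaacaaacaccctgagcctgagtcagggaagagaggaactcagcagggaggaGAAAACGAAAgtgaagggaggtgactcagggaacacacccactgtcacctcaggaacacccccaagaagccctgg
H2-Eb2 lies at chr17:34325425-34325674 and H2-Eb1 at chr17:34305617-34305866 on the plus strand, and Rsad2 at chr12:26456453-26456702 and Oas3 at chr5:120777660-120777909 on the minus strand, as windows of this build. The Y box started 103 bases before the start of H2-Eb2 and 62 before that of H2-Eb1. It was held by 4 of the 11 MHC class II list promoters in the table (H2-Aa, H2-Eb1, H2-Eb2 and H2-Oa), by 4.07% of all 27025 promoters and by 5.57% of the 11544 promoters of genes tested. The interferon element was held by 9 of 18 interferon list promoters (Ifit1, Ifit3, Isg15, Rsad2, Oas1a, Oas3, Stat2, Cxcl10 and Bst2), by 3.04% of all promoters and by 2.9% of those of genes tested. The windows of Slc2a5 and P2ry12, which led the decreases among microglial genes, held no match to GAGGAAGT, a PU.1 site that 1 of 17 homeostatic list promoters (C1qc) and 2.44% of all promoters held. A match is a description of letters and not of binding.

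Total counts ran from 31569304 to 48245164 a library, with 16941 to 21324 genes counted at least once. Levels are given in CPM, counts scaled to a common library total by the trimmed mean of M values. Differences are given as log2 ± an approximate standard error, the size of the difference divided by the square root of edgeR's F statistic. A gene is called where its adjusted p is under 0.05. The genes behind the reporters agreed in direction with the labels. Itgax (chr7:128129547-128150657 in GENCODE M21, on GRCm38) stood at 478, 728, 865 and 954 CPM in CD11c replicates 1 to 4 and at 26.6, 27.5, 34.7 and 32.7 CPM in control microglia replicates 1 to 4, a log2 difference of 4.64 ± 0.33, adjusted p = 1.4e-08. Cx3cr1 (chr9:119901616-120069879), the fractalkine receptor, stood at 1245, 1366, 1402 and 1234 CPM against 2848, 3357, 3186 and 3119 CPM (-1.25 ± 0.15, adjusted p = 1.8e-06). The groups overlapped for neither gene, and Cx3cr1 was high in both.

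The microglia markers P2ry12, Tmem119, Sall1, Olfml3 and Fcrls summed to 3010 to 4440 CPM in CD11c libraries and 13200 to 16300 CPM in control microglia. In splenic CD11c libraries the same sum was 24.1 to 37.6 CPM, so microglial markers were well above the splenic level in the sorted brain cells. Conventional dendritic cell markers other than the sorted Itgax (Flt3, Zbtb46, Ccr7, Dpp4 and Kit) summed to 429 to 1120 CPM against 9.47 to 13.9 CPM, and monocyte markers (Ccr2, Ly6c2, Plac8 and Chil3) to 984 to 1240 CPM against 17.4 to 35.8 CPM. The label CD11c-eYFP+ held for Itgax, and the libraries also carried markers of dendritic cells, monocytes and microglia together. The sum of 4 border macrophage markers, Mrc1, Cd163 and Lyve1 among them, was lower in CD11c libraries, at 90.4 to 262 CPM against 393 to 778 CPM. The part of cell mixture in the results below was not tested.

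CD11c cells and control microglia differed across most of the transcriptome: 58.9% of genes tested were called, 4789 higher (29.3%) and 4837 lower (29.6%) in CD11c cells. Of genes called higher, 593 were past a log2 difference of 4, against 141 of genes called lower. Differences of at least 2-fold were held by 2727 genes called higher (16.7%) and 2455 called lower (15.0%). In 22.7% of genes all 4 CD11c libraries lay above all 4 control libraries and in 26.1% all 4 lay below. The median log2 difference of all genes was 0.00. Counts of called list members below are to be read beside the shares of all genes called, 29.3% higher and 29.6% lower.

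**Figure D1:**
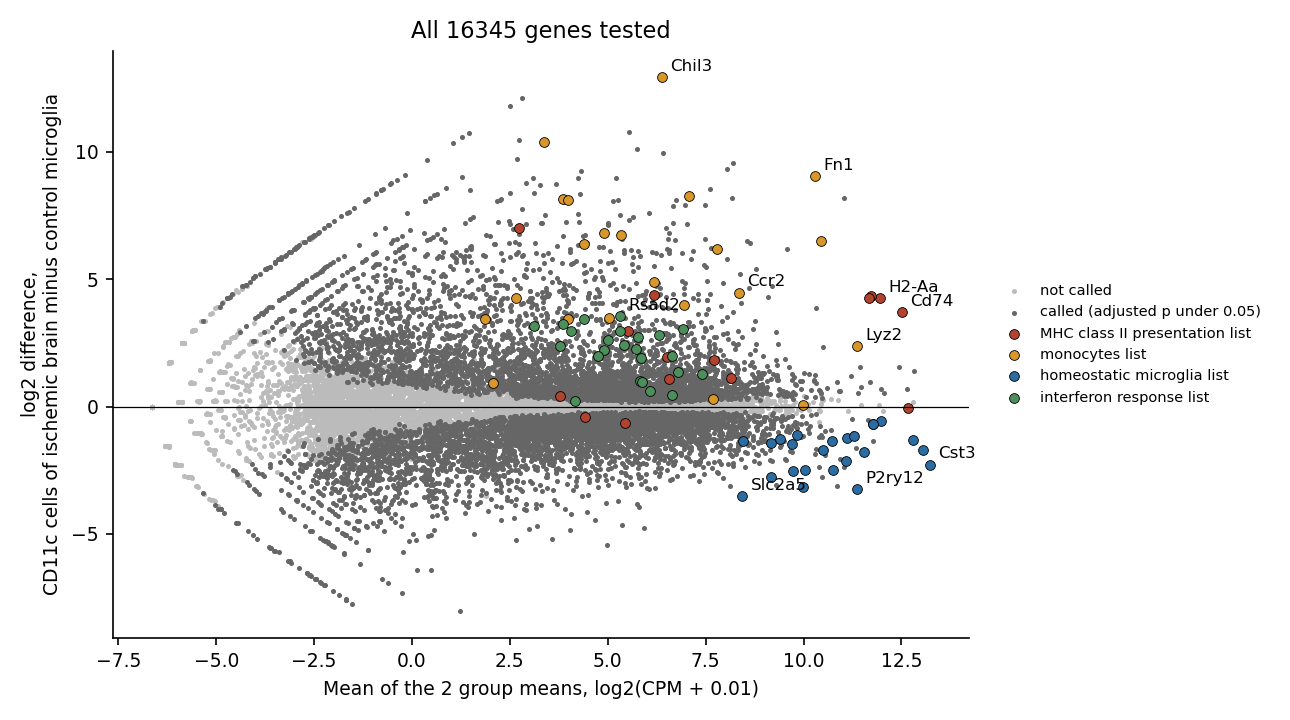
Log2 difference between CD11c cells of ischemic brain and control microglia (vertical axis) against mean level in log2 CPM (horizontal axis) for all 16345 genes tested; grey shades separate called from not called genes and colours mark 4 gene lists. Monocyte genes reach the top of the plot, MHC class II genes combine a high level with a large increase, and all 24 homeostatic microglia genes lie below 0.

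The largest differences were ranked among called genes whose groups did not overlap and whose higher group averaged at least 20 CPM, with predicted, mitochondrial and antigen receptor genes left out. Chil3, a chitinase-like protein of monocytes and macrophages, stood at 360.5, 245, 35.3 and 30.0 CPM in CD11c replicates 1 to 4 and at 0 to 0.0411 CPM in control microglia. Control libraries held 3 counts, and the ratio of pooled CPM was 9060 (95% interval 3100 to 43900), an interval from the exact binomial method that covers counting error only. All CD11c libraries were above every control library, yet replicates 1 and 2 were far above replicates 3 and 4. B3gnt5, a glycosyltransferase, was even across CD11c libraries at 82.7, 104, 101 and 82.0 CPM, with 0 to 0.103 CPM in control (10.79 ± 0.54, adjusted p = 3.2e-10). Trem1, an amplifier of myeloid inflammation, stood at 155, 203, 216 and 108 CPM against 0.0617 to 0.289 CPM (9.96 ± 0.38, adjusted p = 1.8e-11). Arg1, the arginase that turns arginine into ornithine and urea, stood at 280.1, 132, 7.31 and 9.14 CPM against 0.0411 to 0.202 CPM (10.12 ± 1.58, adjusted p = 6.3e-05). Arg1 was thus more than 10 times as high in each of replicates 1 and 2 as in replicates 3 and 4, and limma-voom did not call it (8.72, adjusted p = 0.071).

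The other members of the 10 largest increases by this ranking were Hp, Gpnmb, Emp1, F10, Fn1 and Cdh1. Hp encodes the haemoglobin binder haptoglobin, and control libraries held 2 counts of it, a ratio of pooled CPM of 1690 (95% interval 468 to 14000). Gpnmb, a glycoprotein of lipid-loaded macrophages, stood at 1055, 1029.8, 117 and 149 CPM against 0.347 to 1.41 CPM (9.57 ± 0.99, adjusted p = 1.1e-06). Fn1, fibronectin of the extracellular matrix, stood at 4498, 3752, 1293 and 449 CPM against 2.38 to 6.56 CPM (9.05 ± 0.79, adjusted p = 1.4e-07). Fn1 was also high in ischemic microglia, at 1129 to 2510 CPM, and the direct test against them did not call it (log2 difference 0.62, adjusted p = 0.41). Cdh1, the adhesion protein E-cadherin, was lowest in CD11c replicate 1, with 30.7, 78.0, 100 and 84.9 CPM against 0.0411 to 0.376 CPM (8.96 ± 0.55, adjusted p = 3.0e-09). Emp1, a membrane protein, stood at 247 to 875 CPM against 0.435 to 1.24 CPM (9.33 ± 0.62, adjusted p = 9.0e-09). F10, coagulation factor X, stood at 12.0 to 93.5 CPM against 0.0256 to 0.144 CPM (9.24 ± 0.91, adjusted p = 4.6e-07).

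**Figure D2:**
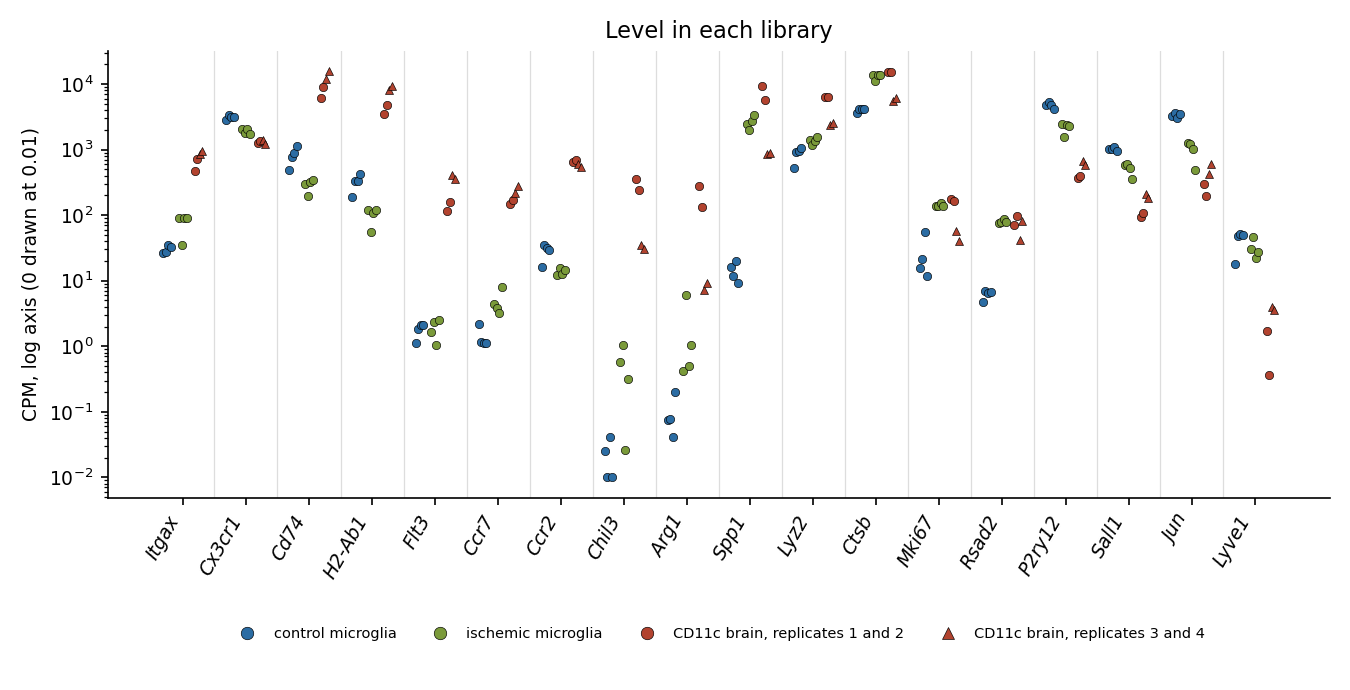
Level of 18 genes in each library in CPM on a log axis, for control microglia (blue), microglia of the ischemic hemisphere (green) and CD11c cells (red), with CD11c replicates 1 and 2 as circles and 3 and 4 as triangles and a value of 0 drawn at 0.01. For Cd74 and H2-Ab1 the ischemic microglia lie below control and the CD11c cells above, for Rsad2 both lie above control, and for Chil3, Arg1 and Spp1 the CD11c circles lie above the triangles.

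Among increases with a log2 difference of at least 2 that met the same criteria, the 4 most abundant were genes of MHC class II presentation, Cd74, H2-Aa, H2-Ab1 and H2-Eb1. MHC class II molecules carry peptides from the endosomal pathway to CD4 T cells, and Ciita encodes the coactivator that turns the genes on. Of the 15 genes on the list, 12 were higher, 2 lower and 1 not called, with a median log2 difference of 1.93. For 10 of them all CD11c libraries lay above all control libraries.

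Among the chains, H2-Aa stood at 4153, 5710, 9122 and 11276 CPM in CD11c replicates 1 to 4 and at 252, 405, 409 and 527 CPM in control microglia (4.25 ± 0.38, adjusted p = 1.1e-07). H2-Ab1 stood at 3515, 4799, 8039 and 9491 CPM against 189, 327, 329.9 and 425 CPM (4.35 ± 0.37, adjusted p = 7.0e-08). H2-Eb1 stood at 3141, 4612, 7517 and 9395 CPM against 184, 313, 336 and 444 CPM (4.27 ± 0.41, adjusted p = 3.2e-07). Each of these 3 genes was higher in CD11c replicates 3 and 4 than in 1 and 2, and the groups did not overlap. Cd74, the invariant chain that guards the peptide groove, was the most abundant increase, at 6231, 9169.9, 11914 and 15818 CPM against 492, 783, 888 and 1135 CPM (3.71 ± 0.31, adjusted p = 4.9e-08). H2-Eb2, with the Y box shown above, had the largest difference of the list, from 0 to 0.15 CPM in control to 10.5, 14.2, 12.1 and 15.5 CPM (7.01 ± 0.36, adjusted p = 3.0e-10).

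Ciita stood at 79.6, 94.0, 200.2 and 175 CPM against 2.57, 7.38, 9.09 and 7.60 CPM (4.36 ± 0.46, adjusted p = 9.7e-07). The peptide exchange factors differed less: H2-DMb2 by 2.96 ± 0.34, H2-DMb1 by 1.83 ± 0.20 and H2-DMa by 1.12 ± 0.24, all called higher. H2-Oa and H2-Ob, which restrain that exchange, differed by 1.93 ± 0.42 and 1.09 ± 0.31. H2-Ob was at 52.9, 78.6, 167 and 219 CPM against 60.5, 63.7, 59.1 and 59.4 CPM, so replicate 1 lay below the control range and replicates 2 to 4 above it. With replicates 1 and 2 only, neither was called (H2-Oa 0.62, adjusted p = 0.056, and H2-Ob 0.11, adjusted p = 0.55). Rfx5, a subunit of the factor that binds the X box, was lower (-0.64 ± 0.12), and the protease gene Ctss was not called at 5747 to 6599 CPM against 6319 to 7118 CPM.

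Microglia of the ischemic hemisphere did not share the increase of Cd74 and H2-Ab1. Their Cd74 was 199 to 350.3 CPM and their H2-Ab1 54.5 to 119 CPM, both below control microglia (log2 differences -1.51, adjusted p = 7.2e-04, and -1.66, adjusted p = 0.0011). The list median was 1.94 in CD11c cells against ischemic microglia and -0.29 in ischemic against control microglia. These contrasts share libraries with the main one. In ischemic against control microglia 1 gene of the list was higher, 6 were lower and 8 were not called. The list sum was 9894 to 11530 CPM in ischemic and 7872 to 10170 CPM in control microglia. In the background, the direct test of CD11c cells against ischemic microglia called 19.7% of genes higher and 19.1% lower, and that of ischemic against control microglia called 35.7% either way. Counts of list members called in these contrasts, here and below, are to be read beside these shares.

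MHC class I genes had smaller differences. These molecules show cytosolic peptides to CD8 T cells. Of 20 genes, 15 were higher and 1 lower, with a median of 0.60, and the median was 0.83 in ischemic against control microglia and -0.07 in CD11c cells against ischemic microglia. Nlrc5, the class I coactivator, stood at 91.3, 115, 106 and 84.0 CPM against 15.6, 21.1, 21.7 and 21.1 CPM (2.32 ± 0.15, adjusted p = 2.3e-09) and at 74.1 to 98.8 CPM in ischemic microglia. H2-D1 stood at 1647, 1566, 1877 and 1913 CPM against 732, 696, 746 and 819.9 CPM (1.23 ± 0.14, adjusted p = 1.1e-06). Tap1, a peptide transporter chain, and the immunoproteasome subunit Psmb8 differed by 1.22 ± 0.13 and 1.17 ± 0.12. The class I heavy chains are near-identical copies, so reads of H2-D1 may have been divided with its neighbours.

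Dendritic cells arise from their own marrow precursors. On the conventional list, which holds the reporter gene Itgax, 12 of 14 were higher and 1 lower, with a median of 3.64. Flt3, the receptor for the dendritic cell growth factor, stood at 116, 161, 404 and 351 CPM against 1.12, 1.84, 2.12 and 2.11 CPM (7.16 ± 0.49, adjusted p = 9.4e-09). Kit, the stem cell factor receptor, stood at 56.6, 94.4, 199 and 183 CPM against 0.625, 0.922, 0.514 and 0.693 CPM (7.60 ± 0.52, adjusted p = 9.9e-09). Ccr7, which guides mature dendritic cells to lymph nodes, stood at 149, 173, 216 and 277 CPM against 2.15, 1.18, 1.11 and 1.13 CPM (7.19 ± 0.36, adjusted p = 3.2e-10). The groups were far apart for all 3 genes, and CD11c replicates 3 and 4 were the highest for each. Btla and Dpp4 differed by 7.51 ± 0.49 and 6.58 ± 0.44, Zbtb46, a transcription factor of the lineage, by 2.02 ± 0.28, and Irf4 by 1.35 ± 0.29. Irf8, a factor that dendritic cells and microglia both need, was lower (-0.81 ± 0.13). Batf3, a factor of type 1 dendritic cells, was not called (-0.30 ± 0.33, adjusted p = 0.46). Its difference was -1.20 (adjusted p = 0.0014) with replicates 1 and 2 only and 0.25 (adjusted p = 0.44) with replicates 3 and 4 only.

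Type 1 dendritic cells present antigen to CD8 T cells. Of the 16 genes on their list 13 were higher and 2 lower, with a median of 3.78. Xcr1, their chemokine receptor, stood at 6.96, 16.2, 23.4 and 29.3 CPM against 0.275, 1.92, 1.15 and 0.462 CPM (4.30 ± 0.56, adjusted p = 9.3e-06). Clec9a, which senses dead cells, stood at 15.6, 19.1, 45.9 and 32.1 CPM against 0.375, 1.26, 1.77 and 1.01 CPM (4.66 ± 0.51, adjusted p = 1.6e-06). Summed with Cadm1, another marker of these cells, Xcr1 and Clec9a did not separate the groups. The sums were 93.2, 127, 149 and 162 CPM in CD11c replicates 1 to 4 and 117 to 132 CPM in control microglia. Itgae, the CD103 integrin chain, stood at 32.1, 112, 173 and 177 CPM against 10.6, 6.86, 8.35 and 6.79 CPM (3.92 ± 0.40, adjusted p = 6.5e-07). Ifi205, Cd24a and Ly75 had the largest differences of the list, at 6.74 ± 0.35, 5.85 ± 0.26 and 5.65 ± 0.34. Tlr3, a sensor of double-stranded RNA, went the other way (-1.18 ± 0.13) and was well expressed in control microglia, at 112 to 118 CPM.

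The type 2 list, of cells that mainly prime CD4 T cells, had 12 of 16 genes higher and 1 lower, with a median of 1.37. The list sum went the other way, at 2411 to 2895 CPM against 3660 to 3879 CPM. Cd209a stood at 66.7, 78.5, 131 and 165 CPM against 14.3, 25.6, 26.9 and 29.5 CPM (2.20 ± 0.49, adjusted p = 0.0013), and Clec10a at 58.1, 61.4, 121 and 97.7 CPM against 22.3, 43.2, 42.9 and 41.2 CPM (1.18 ± 0.26, adjusted p = 0.0012). The groups did not overlap for these genes, and control microglia held more than the 0.425 to 4.05 CPM of Cd209a in ischemic microglia. Mgl2 was not called (-0.49 ± 0.45, adjusted p = 0.37), and Sirpa, which microglia also carry, was lower (-1.02 ± 0.11). Cd7, S100a4 and Tbx21 led the list at 7.20 ± 0.43, 6.72 ± 0.40 and 5.68 ± 0.67.

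Genes of mature dendritic cells and of costimulation were mostly higher. The mature list had 17 of 22 higher and 2 lower, with a median of 1.89, and the costimulation list 12 of 19 higher and 2 lower, with a median of 1.72. Summed over the costimulation list, CPM was lower in CD11c cells, at 4043 to 5683 against 6593 to 8294. The median and the sum of that list thus differ in sign. The mature list sums overlapped, at 3417 to 5226 CPM against 3293 to 5260 CPM. They were 5200 to 7202 CPM in ischemic microglia, where 15 of the 22 genes were higher and 3 lower than in control. Pdcd1lg2, the ligand PD-L2, had 560 counts in CD11c libraries and 0 in control, at least 222-fold higher against 3 counts over the group. Tnfsf4, the ligand OX40L, had 1806 counts and 1 count, a ratio of pooled CPM of 2150 (95% interval 385 to 85000). Cd80 stood at 64.6, 79.6, 103 and 95.1 CPM against 25.8, 28.7, 24.9 and 24.8 CPM (1.72 ± 0.14, adjusted p = 2.9e-08). Cd40 stood at 29.4, 26.7, 33.8 and 45.7 CPM against 4.75, 2.10, 2.36 and 5.32 CPM (3.23 ± 0.28, adjusted p = 8.5e-08). Traf1 and Tnfrsf9, of the TNF receptor family and its signalling, differed by 5.94 ± 0.28 and 7.46 ± 0.74, and Ccl22, a chemokine that draws regulatory T cells, by 3.54 ± 0.33. Fscn1, an actin bundler of mature dendritic cells, was lower (-2.15 ± 0.24) and abundant in control microglia, at 578 to 799 CPM. Vsir, the checkpoint protein VISTA, stood at 718, 742, 846 and 675 CPM against 2973, 3273, 3029 and 3263 CPM (-2.07 ± 0.12, adjusted p = 1.0e-09), and Lag3 was also lower (-1.86 ± 0.31).

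Plasmacytoid dendritic cells make type I interferon. Of 16 genes on their list 11 were higher and 3 lower, with a median of 2.51, or 2.25 with genes absent from control at their bound. The list sum was lower, at 1016 to 1397 CPM against 2335 to 2515 CPM. Ly6c2, Spib and Runx2 led it (8.14 ± 0.66, 7.27 ± 0.38 and 5.71 ± 0.29). Siglech, a defining marker that microglia share, stood at 162, 172, 324 and 349 CPM against 1501, 1527, 1326 and 1386 CPM (-2.51 ± 0.30, adjusted p = 2.7e-06), and Ccr9, which they lack, at 2.31, 3.61, 7.42 and 1.90 CPM against 0.0289 to 0.179 CPM (5.52 ± 0.53, adjusted p = 2.0e-07).

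Monocyte genes gave the highest list median. Of 22 genes 19 were higher and 3 were not called, with a median of 5.54, and 19 had all CD11c libraries above all control libraries. Ccr2, the receptor by which monocytes leave the marrow and enter inflamed tissue, stood at 656, 686, 611 and 536 CPM against 16.4, 34.8, 31.4 and 29.1 CPM (4.48 ± 0.27, adjusted p = 1.5e-09). In ischemic microglia it was 12.1 to 15.8 CPM, lower than in control microglia (-1.02, adjusted p = 0.0035). Over the whole list, ischemic against control microglia had 9 genes higher and 1 lower, with a median of 1.09 and sums of 4236 to 5227 CPM against 1956 to 2431 CPM. That contrast called 35.7% of all genes either way. Plac8 stood at 165, 132, 319 and 449 CPM against 0.700, 0.999, 1.09 and 0.664 CPM (8.25 ± 0.56, adjusted p = 1.0e-08). Ly6c2, which encodes a Ly6C antigen of inflammatory monocytes and has near-identical neighbours, stood at 58.1, 16.9, 19.4 and 21.1 CPM against 0.0206 to 0.3 CPM, with replicate 1 well above the rest. Lyz2, lysozyme, was the fifth of the abundant increases ranked above, at 6316, 6397, 2410 and 2587 CPM against 522, 913, 959 and 1056 CPM (2.36 ± 0.31, adjusted p = 8.3e-06). Thbs1, thrombospondin, stood at 5226, 4335, 839.7 and 691 CPM against 39.2, 26.8, 28.0 and 30.0 CPM (6.48 ± 0.62, adjusted p = 3.7e-07). F13a1, a coagulation factor chain, was not called at 458, 305, 87.0 and 55.7 CPM against 109.9, 211, 207 and 208 CPM, above control in replicates 1 and 2 and below it in 3 and 4. Its difference was 1.05 (adjusted p = 0.028) with replicates 1 and 2 only and -1.37 (adjusted p = 0.014) with replicates 3 and 4 only.

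On the list of chemokine receptors and adhesion genes 14 of 21 were higher and 5 lower, with a median of 3.32. Their summed CPM was lower, at 7261 to 7945 against 7983 to 9450. Cxcr4, the receptor for CXCL12, stood at 976, 1072, 955 and 1517 CPM against 36.0, 37.0, 42.7 and 52.1 CPM (4.75 ± 0.30, adjusted p = 2.8e-09). Cd44, a receptor for hyaluronan, stood at 557, 603, 312 and 281 CPM against 5.32, 5.81, 6.15 and 6.88 CPM (6.18 ± 0.29, adjusted p = 1.3e-10). Itgb7 differed by 6.10 ± 0.35, Itga4 by 3.98 ± 0.27 and Ccr1 by 3.32 ± 0.26. Selplg, the selectin ligand, went down from 3049 to 3809.7 CPM to 716 to 926 CPM (-2.14 ± 0.14, adjusted p = 4.2e-09). S1pr1 and S1pr4, receptors for a lipid that guides leukocyte exit from tissue, were lower by smaller amounts (-0.84 ± 0.18 and -1.20 ± 0.27).

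Genes of S100 proteins, annexins, galectins and the cytoskeleton were nearly all higher, 16 of 18, with a median of 4.88. Anxa1, an annexin that limits leukocyte entry, stood at 203, 218, 138 and 156 CPM against 0.5, 1.61, 1.25 and 2.22 CPM (7.01 ± 0.33, adjusted p = 1.8e-10). Lgals3, galectin-3, stood at 1110.4, 938, 422 and 503 CPM against 6.4, 5.92, 9.44 and 11.5 CPM (6.48 ± 0.33, adjusted p = 3.1e-10). Vim, the intermediate filament vimentin, stood at 1871, 1839.7, 1078 and 1194 CPM against 16.2, 18.2, 21 and 25.9 CPM (6.20 ± 0.25, adjusted p = 1.6e-11). S100a11 and S100a6 were close to even across CD11c libraries (78.9 to 90.0 and 122 to 204 CPM) against 0.925 to 1.46 and 1.15 to 3.38 CPM. Ischemic microglia stayed near control for these 2 genes, at 0.930 to 1.91 and 0.941 to 2.02 CPM, but the list as a whole did not: 9 of 18 genes were higher in ischemic than in control microglia, with a median of 1.04 and sums of 3830 to 4235 CPM against 1215 to 1333 CPM. Anxa3 was lower (-0.59 ± 0.16).

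**Figure D3:**
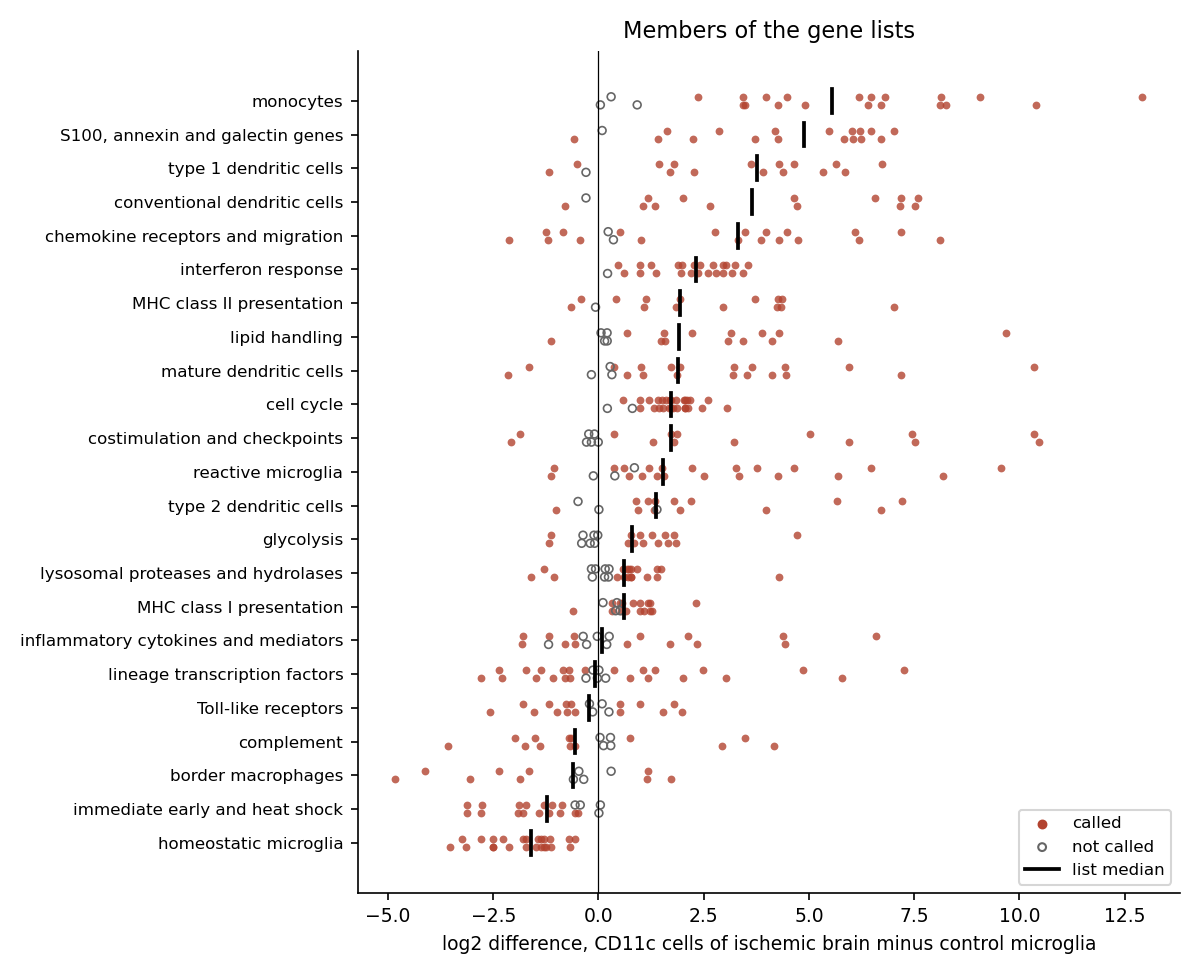
Log2 difference of every tested member (points) of 23 gene lists, with the list median as a bar, filled points for called genes and open points for genes not called. Monocyte genes have the highest median, 5.54, and homeostatic microglia genes the lowest, -1.60, with every member below 0.

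Genes of homeostatic microglia were lower. All 24 homeostatic microglia genes were lower, with a median of -1.60, against 29.6% of all genes. Slc2a5, a fructose transporter, had the largest difference, at 48.1, 39.3, 74.5 and 60.5 CPM against 569, 687, 674 and 624 CPM (-3.52 ± 0.19, adjusted p = 3.7e-10). P2ry12 (chr3:59216272-59262871), the ADP receptor that steers microglial processes, stood at 367, 398, 669 and 588 CPM against 4811, 5356, 4831 and 4172 CPM (-3.24 ± 0.22, adjusted p = 6.1e-09). P2ry13 stood at 209, 185, 212 and 214 CPM against 1828, 2044, 1724 and 1716 CPM (-3.16 ± 0.16, adjusted p = 2.5e-10). No library of either group entered the range of the other for these 3 genes, and P2ry13 was nearly even across the CD11c libraries.

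Sall1, the transcription factor that holds microglial identity, stood at 93.0, 108, 207 and 181 CPM against 1012, 1018, 1081 and 943 CPM (-2.78 ± 0.23, adjusted p = 4.2e-08). Tmem119 stood at 599, 497, 538 and 450.1 CPM against 2483, 3304, 2912 and 3130.1 CPM (-2.51 ± 0.16, adjusted p = 3.4e-09). Cst3, the protease inhibitor cystatin C, was the most abundant decrease, from 13484, 16785, 16188 and 17269 CPM in control to 2206, 2187, 3292 and 5439 CPM (-2.28 ± 0.29, adjusted p = 5.0e-06). Csf1r, the growth factor receptor of all macrophages, was still high at 3804, 3962, 4578 and 3456 CPM against 12436, 12935, 12752 and 13735 CPM (-1.71 ± 0.14, adjusted p = 3.2e-08). The complement genes C1qa, C1qb and C1qc had among the smallest decreases (-0.70 ± 0.17, -0.57 ± 0.18 and -0.68 ± 0.17), and C1qb was not called with CD11c replicates 1 and 2 only (-0.35, adjusted p = 0.14).

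Ischemic microglia lay between the groups for the leading genes: P2ry12 was 1567 to 2438 CPM, Sall1 358 to 612 CPM and Slc2a5 173 to 282 CPM. The list median was -0.27 in ischemic against control microglia and -1.30 in CD11c cells against ischemic microglia, where 24 of 24 genes were called lower.

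The 10 largest decreases by the ranking used for the increases, with its minimum of 20 CPM, were genes outside the homeostatic list. Gpr165, an orphan receptor, stood at 0.420 to 3.15 CPM against 44.4 to 80.0 CPM (-5.45 ± 0.61, adjusted p = 8.2e-06). Upk1b, a tetraspanin, and Tmem204 had log2 differences of -4.78 ± 0.47 and -4.44 ± 0.30, and Ccdc162, Klhdc8b and Gprasp2 of -5.20 ± 0.44, -3.96 ± 0.30 and -4.02 ± 0.71. Esr1, the oestrogen receptor alpha, was even within both groups at 3.37, 2.83, 3.27 and 3.10 CPM against 73.8, 80.1, 77.5 and 85.4 CPM (-4.65 ± 0.13, adjusted p = 6.3e-13). Bmp2, a growth factor of the TGF-beta family, stood at 0.840 to 2.27 CPM against 12.8 to 28.9 CPM (-3.83 ± 0.45, adjusted p = 2.6e-06). Ccl24, an eosinophil chemokine, and Lyve1, a hyaluronan receptor of border macrophages, were also in this group (-4.24 ± 0.51 and -4.13 ± 0.51).

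Border macrophages line meninges and vessels, and of 13 genes on their list 3 were higher and 6 lower, with a median of -0.60. Lyve1 stood at 1.70, 0.364, 3.96 and 3.61 CPM against 18.3, 48.3, 51.9 and 49.5 CPM, and Cd163, a scavenger of haemoglobin, at 6.35, 3.45, 11.4 and 20.2 CPM against 55.1, 93.7, 91.2 and 104 CPM (-3.05 ± 0.47, adjusted p = 5.3e-05). Mrc1, the mannose receptor, stood at 173, 187, 69.8 and 101 CPM against 290.5, 562, 522 and 557 CPM (-1.86 ± 0.27, adjusted p = 2.4e-05). Control replicate 1 was the lowest control library for all 3 genes and still above every CD11c library. Ms4a7 was the main exception, at 250.4, 226, 44.6 and 96.8 CPM against 23.4, 51.5, 51.5 and 59.3 CPM (1.73 ± 0.45, adjusted p = 0.0037), and its difference rested on replicates 1 and 2 (log2 0.60, adjusted p = 0.23, with replicates 3 and 4 only). With replicates 3 and 4 only, 10 list members were called lower and the median was -2.25. With replicates 1 and 2 only, 5 were called lower and the median was -0.14. The list sums overlapped, at 2809, 2695, 1380 and 1114 CPM in CD11c replicates 1 to 4 against 2420 to 3658 CPM.

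Of 28 lineage transcription factors 11 were higher and 12 lower, with a median of -0.08, or 0.02 without CD11c replicate 4. Bhlhe40, a transcriptional repressor, stood at 397, 467, 543 and 669 CPM against 8.57, 8.89, 9.30 and 10.7 CPM (5.79 ± 0.16, adjusted p = 6.1e-13). Runx3 stood at 253, 251, 279.7 and 183 CPM against 8.35, 5.97, 6.72 and 12.4 CPM (4.86 ± 0.25, adjusted p = 2.7e-10). Spi1, the gene of PU.1 on which all macrophages and dendritic cells depend, was not called at 373 to 395 CPM against 314 to 371 CPM. Among decreases, the log2 difference was -2.37 ± 0.15 for Maf, -2.30 ± 0.17 for Sall3, -1.73 ± 0.15 for Smad3 and -1.36 ± 0.12 for Mef2c.

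TGF-beta signalling genes, which microglia need, had 4 of 16 higher and 7 lower, where 29.3% and 29.6% of all genes were, with a median of -0.23. Tgfbr1, a receptor chain, stood at 548, 666, 699.9 and 799 CPM against 2381, 2301, 2229.9 and 2027 CPM (-1.72 ± 0.12, adjusted p = 5.6e-09). Smad7, an inhibitor of the pathway, and Tgfbr2 were lower (-1.66 ± 0.23 and -0.73 ± 0.11), while the ligand gene Tgfb1 was not called (-0.17 ± 0.11, adjusted p = 0.19). Lrrc32 and Ltbp3, which bind latent TGF-beta, were higher (3.20 ± 0.64 and 1.77 ± 0.20).

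Purinergic receptors sense nucleotides from damaged cells, and every one of 17 genes on their list was called, 11 higher and 6 lower. The median was 0.985, but the list sum was lower in CD11c cells, at 1629 to 2384 CPM against 7510 to 9206 CPM. P2ry10 had the largest increase, at 165, 258, 495 and 517 CPM against 1.45, 1.15, 1.52 and 1.91 CPM (7.90 ± 0.47, adjusted p = 2.6e-09). Nt5e, the ectoenzyme that makes adenosine, stood at 21.6, 40.0, 12.9 and 4.75 CPM against 0.0750 to 0.260 CPM (7.21 ± 0.72, adjusted p = 5.6e-07). Entpd1, which acts upstream of it on ATP, went the other way, at 204, 206, 246 and 204 CPM against 827, 1061, 932 and 873 CPM (-2.10 ± 0.14, adjusted p = 3.8e-09). The adenosine receptors Adora2a and Adora2b were higher (4.75 ± 0.39 and 6.4 ± 0.45) and Adora3 lower (-2.0 ± 0.18), as was P2rx7 (-1.56 ± 0.12).

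Immediate early and heat shock genes respond to handling as well as to signals in tissue. Of 20 genes 16 were lower and 4 were not called, with a median of -1.23. Jun stood at 297, 199.5, 423 and 609 CPM against 3236, 3675, 3039 and 3469 CPM (-3.13 ± 0.32, adjusted p = 5.7e-07), and Egr1 at 301, 185, 394 and 582 CPM against 2962, 2039, 2188 and 2798 CPM (-2.77 ± 0.30, adjusted p = 1.1e-06). The heat shock genes Hspa1a and Hspa1b, near-identical copies, were lower (-2.79 ± 0.54 and -3.13 ± 0.59), and Hspa1a was at 198 to 622 CPM in control. In ischemic microglia Jun was 493 to 1282 CPM and Hspa1a 31.9 to 65.8 CPM. Whether dissociation acted alike on the 2 sorted populations was not tested. The list median was -0.92 in ischemic against control microglia. Rhob, a small GTPase gene and among the 5 most abundant decreases with a log2 difference of at least 2 in size, stood at 646, 493, 743 and 866 CPM against 3643, 3699.7, 3261 and 3541 CPM (-2.36 ± 0.18, adjusted p = 1.5e-08).

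Interferon response genes were higher in CD11c cells, as they were in ischemic microglia. Of 24 genes 23 were higher and 1 was not called, with a median of 2.32, against 29.3% of all genes. Rsad2, the antiviral enzyme viperin, stood at 70.1, 98.1, 41.5 and 81.2 CPM against 4.70, 6.99, 6.54 and 6.73 CPM (3.54 ± 0.29, adjusted p = 6.2e-08). Oas3, which makes the activator of RNase L, stood at 43.6, 49.3, 31.6 and 29.2 CPM against 1.30, 3.02, 2.98 and 6.99 CPM (3.44 ± 0.42, adjusted p = 3.9e-06). Irf7, the regulator that amplifies type I interferon, stood at 207, 241, 176 and 236 CPM against 15.7, 27.3, 24.8 and 37.3 CPM (3.03 ± 0.25, adjusted p = 4.3e-08). All CD11c libraries were above all control libraries for these genes, and replicate 2 was the highest CD11c library for each.

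In ischemic microglia Rsad2 stood at 74.7 to 87.7 CPM and Irf7 at 198 to 251 CPM. The list median was 2.47 in ischemic against control microglia and -0.14 in CD11c cells against ischemic microglia, with 4 genes called lower and the other 20 not called in that direct test. Among the lower ones were Ifit2, Cxcl10 and Ifih1 (-0.92, -1.13 and -0.37). Against control these were higher by 2.72 ± 0.22, 1.97 ± 0.33 and 0.98 ± 0.13.

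**Figure D4:**
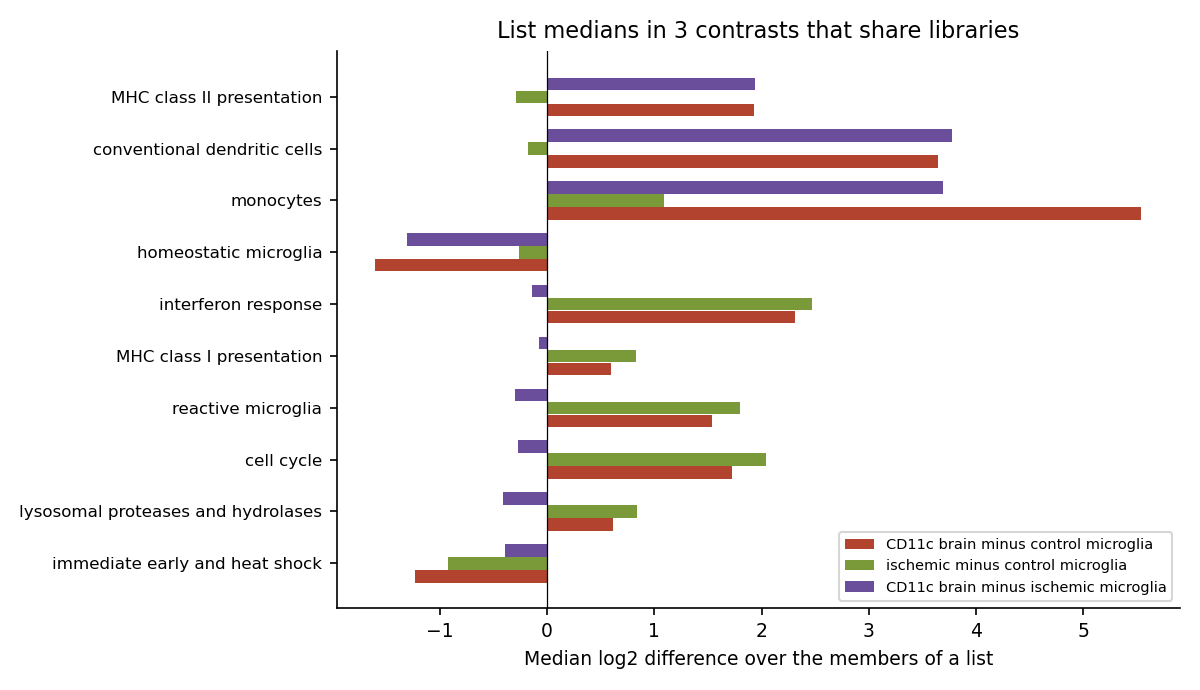
Median log2 difference over the members of 10 gene lists in 3 contrasts that share libraries: CD11c cells against control microglia (red), ischemic against control microglia (green) and CD11c cells against ischemic microglia (purple). The MHC class II and conventional dendritic cell medians are positive in the red and purple contrasts and negative in the green one, while the interferon median is 2.32 in red, 2.47 in green and -0.14 in purple.

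Genes of reactive microglia, also known from lipid-loaded macrophages, were mostly higher. 19 of 24 rose and 2 fell against control, with a median of 1.53. Spp1, osteopontin, stood at 9280.1, 5706, 867 and 884 CPM against 16.0, 11.8, 20.3 and 9.10 CPM (8.19 ± 0.78, adjusted p = 3.4e-07). Clec7a, the receptor dectin-1, stood at 616, 937, 691 and 922 CPM against 75.1, 82.5, 75.5 and 78.2 CPM (3.35 ± 0.21, adjusted p = 2.8e-09). Apoe, the lipid carrier, stood at 8536, 12497, 5666 and 6406 CPM against 1559, 2871, 3115 and 3686 CPM (1.56 ± 0.33, adjusted p = 6.9e-04). Spp1 was more than 6 times as high in each of replicates 1 and 2 as in 3 and 4, and Clec7a showed no such order. Axl, Cst7 and Lpl were higher by 2.5 ± 0.18, 3.26 ± 0.25 and 2.22 ± 0.33, while Trem2, the lipid sensor through which microglia enter this state, stood at 575, 603, 498 and 629 CPM against 1095, 1393, 1259 and 1301 CPM (-1.13 ± 0.14, adjusted p = 3.4e-06). Vegfa, the vascular growth factor, stood at 272, 244, 142 and 131 CPM against 11.4, 8.30, 28.1 and 9.36 CPM (3.78 ± 0.57, adjusted p = 4.5e-05) and at 4.07 to 43.3 CPM in ischemic microglia. The list median was 1.8 in ischemic against control microglia. In CD11c cells against ischemic microglia 7 list genes were higher and 6 lower, with a median of -0.295. The list sums were 46050, 46980, 20710 and 23480 CPM in CD11c replicates 1 to 4 and 36350 to 38850 CPM in ischemic microglia.

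Lipid handling and lysosomal genes were also mostly higher. On the lipid list 13 of 18 were higher and 1 lower, with a median of 1.90. Plin2, which coats lipid droplets, stood at 1509, 1504, 565 and 559 CPM against 46.7, 54.6, 54.6 and 54.3 CPM (4.30 ± 0.31, adjusted p = 1.2e-08). Fabp5, a fatty acid carrier, stood at 119.5, 109, 18.7 and 23.6 CPM against 1.47, 1.28, 1.54 and 0.924 CPM (5.68 ± 0.59, adjusted p = 8.0e-07). Fabp4 had 353 counts in CD11c libraries and 0 in control, at least 140-fold higher. Pparg and Nr1h3, nuclear receptors of lipid metabolism, were higher by 3.44 ± 0.40 and 3.88 ± 0.40, and Msr1, a scavenger receptor, by 3.16 ± 0.56. In ischemic against control microglia 13 of 18 lipid genes were higher and 0 lower, with a median of 0.97. In CD11c cells against ischemic microglia 7 were higher and 3 lower, with a median of 0.41.

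Of 25 lysosomal genes 15 were higher and 3 lower, with a median of 0.62. Ctsb, cathepsin B, stood at 15053, 15335, 5578 and 6159 CPM against 3608, 4204, 4125 and 4237 CPM (1.38 ± 0.29, adjusted p = 5.8e-04). Lipa and Gusb were higher by 1.48 ± 0.21 and 1.38 ± 0.21, while Ctsf and Ctso were lower (-1.61 ± 0.22 and -1.05 ± 0.11). Summed over the list, CD11c replicates 1 to 4 held 72640, 74270, 44690 and 46630 CPM against 45940 to 52020 CPM. Replicates 1 and 2 stood above every control library, replicate 3 below the control range and replicate 4 within it. Ischemic microglia summed higher than every CD11c library, at 82580 to 95110 CPM. Against control they had 20 of 25 genes higher and 1 lower, with a median of 0.835. In CD11c cells against ischemic microglia 2 genes were higher and 13 lower, with a median of -0.41.

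Enzymes of arginine and itaconate metabolism had 9 of 10 higher and 1 lower, with a median of 4.88, or 3.59 with genes absent from control at their bound. Arg2, the mitochondrial arginase, stood at 28.3, 22.4, 3.98 and 5.63 CPM against 0 to 0.0750 CPM (8.79 ± 0.79, adjusted p = 1.3e-07). Acod1, which makes itaconate, stood at 35.1, 46.6, 16.1 and 13.0 CPM against 0.0512 to 1.18 CPM (5.64 ± 0.56, adjusted p = 4.8e-07) and at 35.4 to 51.7 CPM in ischemic microglia, where the list median was 1.48 against control. Sat1, a polyamine enzyme gene, was the lower one (-0.77 ± 0.15). The list sum did not follow the median, at 722 to 1002 CPM against 918.5 to 1260 CPM.

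Cell cycle genes were higher, with an unequal spread. Of 29 genes 27 were called higher and 2 were not called, with a median of 1.72, but only 11 had all CD11c libraries above all control libraries. Mki67, a marker of dividing cells, stood at 174, 164, 58.3 and 40.7 CPM against 15.6, 21.3, 55.3 and 11.9 CPM (2.07 ± 0.50, adjusted p = 0.0024). Rrm2, which supplies nucleotides for replication, stood at 48.2, 39.2, 10.3 and 16.6 CPM against 1.35, 2.84, 8.06 and 1.36 CPM (3.05 ± 0.57, adjusted p = 2.9e-04). Control replicate 3 was the highest control library for both, and with CD11c replicates 3 and 4 only, 13 genes of the list were called higher and Mki67 was not (0.92, adjusted p = 0.13). The list median was 2.04 in ischemic against control microglia, and in CD11c cells against ischemic microglia edgeR called 0 of the 29 genes, with 1 at an unadjusted p under 0.05.

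Glycolysis genes had 12 of 20 higher and 2 lower, with a median of 0.81. Ldha, lactate dehydrogenase, stood at 543, 492, 330.3 and 351 CPM against 108, 122, 139.5 and 127 CPM (1.79 ± 0.17, adjusted p = 2.1e-07). Pfkp, a phosphofructokinase chain, had the largest difference, at 116, 128, 191 and 145 CPM against 3.55, 4.99, 6.31 and 7.05 CPM (4.73 ± 0.22, adjusted p = 1.1e-10), with 4.76 to 6.67 CPM in ischemic microglia. In ischemic against control microglia 13 of 20 were higher and 1 lower, with a median of 0.81, and the median was -0.03 in CD11c cells against ischemic microglia. Hk2 and Pdk1 were lower (-1.14 ± 0.12 and -1.19 ± 0.11).

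Of 18 genes of cholesterol synthesis 10 were higher and 1 lower, with a median of 0.63. Sqle, squalene epoxidase, stood at 13.1, 6.44, 6.70 and 12.1 CPM against 2.10, 3.20, 2.69 and 3.50 CPM (1.74 ± 0.25, adjusted p = 1.7e-05), and Cyp51, a sterol demethylase, was higher (1.42 ± 0.14). The lower member was Lss, lanosterol synthase (-1.30 ± 0.18).

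Of 20 inflammatory mediators 8 were higher and 6 lower, where 29.3% and 29.6% of all genes were. The median was 0.08, or -0.00 with the 8 libraries of the contrast alone, and 1.06 in ischemic against control microglia. Il1b stood at 1772, 1571, 2551 and 3767 CPM against 396, 453, 448 and 604 CPM (2.35 ± 0.26, adjusted p = 1.2e-06), and Il1rn, which blocks its receptor, at 163, 178, 45.9 and 60.7 CPM against 6.22, 3.05, 5.02 and 7.02 CPM (4.39 ± 0.44, adjusted p = 6.2e-07). Il12b stood at 14.2, 23.4, 15.4 and 16.7 CPM against 1.22, 0.307, 1.03 and 0.636 CPM (4.43 ± 0.57, adjusted p = 7.6e-06). Tnf was not called, at 442, 261, 333 and 580.0 CPM against 943, 309, 343 and 485 CPM, where control replicate 1 held the highest value. Il6, Il27 and Nfkbia, an inhibitor of NF-kappa B, were lower (-1.80 ± 0.28, -1.81 ± 0.21 and -1.17 ± 0.23). Il12a had 41 counts in CD11c libraries and 0 in control, at least 16.3-fold higher.

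Chemokines had 8 of 17 higher and 4 lower, with a median of 0.56, or -0.04 without CD11c replicate 4 and 0.26 without control replicate 1. Ccl5 stood at 25.0, 35.2, 52.5 and 98.5 CPM against 2.52, 2.38, 1.75 and 2.69 CPM (4.50 ± 0.50, adjusted p = 1.6e-06), and Cxcl16 at 589.8, 635, 604 and 745 CPM against 216, 106, 126 and 162 CPM (2.08 ± 0.24, adjusted p = 1.6e-06). Ccl3, an inflammatory chemokine of microglia, was lower at 471, 355, 450.1 and 909.8 CPM against 1558, 762, 783 and 873 CPM (-0.86 ± 0.27, adjusted p = 0.013). Its groups overlapped, and it was not called without control replicate 1 (-0.55, adjusted p = 0.068) or with CD11c replicates 3 and 4 only (-0.56, adjusted p = 0.15).

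Pattern receptors were called in both directions, where 29.3% of all genes were called higher and 29.6% lower. Of 19 Toll-like receptor genes 6 were higher and 9 lower (median -0.21), with Tlr2 at 1372, 1410.1, 959.9 and 954 CPM against 522, 331, 329.8 and 427 CPM (1.54 ± 0.17, adjusted p = 1.2e-06) and Tlr4 lower (-1.53 ± 0.22), as were Tlr12 (-2.58 ± 0.34) and Tlr5 (-1.80 ± 0.36). Of 18 C-type lectins 12 were higher and 3 lower (median 1.53). Clec4e, the receptor Mincle, stood at 366, 244, 112 and 91.9 CPM against 0.658 to 1.24 CPM (7.88 ± 0.68, adjusted p = 1.5e-07), and its neighbour Clec4d followed (6.57 ± 0.73). Of 8 Fc receptor genes 4 were higher and 2 lower (median 0.13, or -0.27 with the 8 libraries of the contrast alone), and their summed CPM was lower, at 3323 to 5085 against 5130 to 6532, with Fcgr4 at 193, 171, 147 and 142 CPM against 15.2, 25.0, 24.9 and 26.3 CPM (2.84 ± 0.17, adjusted p = 1.3e-09) and Fcgr3 lower (-0.97 ± 0.15).

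Complement genes had 4 of 17 higher and 9 lower, with a median of -0.57. Cfp, properdin, stood at 343, 381, 370.2 and 317 CPM against 9.02, 21.7, 24.1 and 23.2 CPM (4.18 ± 0.25, adjusted p = 1.4e-09), and C3, the central component, at 123, 103, 50.7 and 44.0 CPM against 3.67, 6.63, 7.24 and 11.0 CPM (3.49 ± 0.42, adjusted p = 4.4e-06). Growth factor genes had 4 of 18 higher and 6 lower, where 29.3% and 29.6% of all genes were, with a median of -0.22. Hgf, a growth factor of epithelial and other cells, stood at 35.8, 45.2, 15.9 and 15.6 CPM against 2.10, 2.59, 2.36 and 1.70 CPM (3.68 ± 0.34, adjusted p = 1.4e-07), while Hbegf and Pdgfb were lower (-2.93 ± 0.45 and -1.46 ± 0.21).

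Defining markers of lymphocytes and neutrophils were low in every CD11c library. The 4 defining T cell markers, CD3 chains and the receptor constant region, summed to 0.364 to 6.67 CPM against 0.164 to 0.999 CPM in control, 4 B cell markers to 0.729 to 7.15 CPM against 0.0768 to 0.226 CPM, and 4 neutrophil markers to 0.42 to 4.02 CPM against at most 0.0822 CPM. The T cell and neutrophil sums were lowest in replicate 2 and the B cell sum in replicate 1, and all 3 were highest in replicate 4. The 3 defining natural killer markers summed to at most 0.917 CPM, and of them Ncr1 was at 0 in all 4 CD11c libraries. The wider natural killer list summed to 86.9, 106, 226 and 266 CPM in CD11c replicates 1 to 4 against 4.10 to 6.99 CPM in control.

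T cell genes were called higher for 13 of 17 (median 2.64), or 7 without CD11c replicate 4, 7 with replicates 1 and 2 only, 5 with limma-voom and 6 with the 8 libraries alone, natural killer genes for 6 of 13 (median 1.76), and plasma cell genes for 6 of 8 (median 1.20), or 3 without control replicate 4 or with no count filter. Klrk1 and Klrd1, receptors of natural killer cells, led the natural killer list (6.26 ± 0.48 and 4.85 ± 0.42). Of the 8 plasma cell genes 2 had all CD11c libraries above control and 2 all below, beside 22.7% and 26.1% of all genes. The plasma cell sums overlapped, at 350 to 434 CPM against 322 to 367 CPM. B cell genes had 7 of 14 higher and 4 lower (median 1.30). With the 8 libraries alone the median was -1.37 and 2 were called higher, and the list sum was lower in CD11c cells, at 178 to 295 CPM against 662 to 763 CPM. Bank1, which control microglia carried at 64.6 to 77.6 CPM, was lower (-3.73 ± 0.18). Neutrophil genes had 6 of 15 higher and 1 lower (median 3.85, or 2.52 with absent genes at their bound), but 2 were higher with limma-voom and 3 with the 8 libraries alone. Their sum was lower in every CD11c library, at 282 to 416 CPM against 758 to 852 CPM. S100a8 stood at 0.420 to 2.18 CPM in CD11c cells, while Mmp8, a collagenase of neutrophils, had a ratio of pooled CPM of 1050 (95% interval 292 to 8710) from 2 control counts. Of 6 erythroid genes edgeR, DESeq2 and limma-voom each called 0, with 0 at an unadjusted p under 0.05 (median 0.19).

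Neuronal genes were lower for 10 of 14 (median -2.60, or 5 lower with the strict count filter) and astrocyte genes for 5 of 10 (median -0.80), from small control sums of 27.3 to 52.5 and 19.5 to 36.3 CPM over the defining markers. Oligodendrocyte genes had 3 of 13 higher and 1 lower (median 0.94, or -0.21 with CD11c replicates 1 and 2 only), with 5 higher without CD11c replicate 1, 7 without replicate 2 and 8 with replicates 3 and 4 only. Endothelial and mural genes had 6 of 12 higher and 1 lower (median 0.89), or 2 higher with replicates 1 and 2 only, with Cldn5, of the tight junctions of brain vessels, at 1.25, 1.34, 11.1 and 7.40 CPM against 1.000, 0.820, 0.761 and 0.607 CPM (2.72 ± 0.62, adjusted p = 0.0013). Cldn5 was highest in CD11c replicates 3 and 4, and its difference was not called with replicates 1 and 2 only (log2 0.70, adjusted p = 0.19). The calls of Trbc2 (a T cell receptor chain), Mzb1 (of plasma cells) and Tek (of endothelium) turned on single libraries. Leaving out CD11c replicate 4 gave Trbc2 a log2 difference of 1.15 (adjusted p = 0.41), and leaving out replicate 3 gave Mzb1 1.18 (adjusted p = 0.28) and Tek 1.38 (adjusted p = 0.10). Each was also not called without control replicate 4 (adjusted p = 0.059, 0.065 and 0.056), Trbc2 also without control replicates 2 and 3, and Mzb1 also without control replicates 1 and 3.

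The 4 CD11c libraries were less alike than the 4 control libraries. Correlations of log2 CPM across genes ran from 0.970 to 0.994 between CD11c libraries and from 0.991 to 0.996 between control libraries. Of the variance across all 16 libraries the first principal component held 67.7% and the third 5.1%, and on the third CD11c replicates 1 and 2 lay at -18.7 and -22.9 and replicates 3 and 4 at 49.7 and 65.3. The labels give these pairs different styles of title but no batch, so a batch and the cells cannot be told apart.

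Levels followed the same division in opposite ways. Summed over the conventional dendritic cell list, the CD11c replicates 1 to 4 held 1695, 2144, 3007 and 3281 CPM against 786 to 908 CPM in control, and over the MHC class II list 24200, 31760, 43930 and 54380 CPM against 7872 to 10170 CPM. Ctss, which was not called, made up most of the MHC class II sum in control. Monocyte list sums ran the other way, at 19780, 17740, 7877 and 7373 CPM against 1956 to 2431 CPM, and so did lipid handling, at 15010, 19420, 9372 and 10200 CPM against 4640 to 7164 CPM. Homeostatic microglia sums were close across the 4, at 30540, 30740, 29080 and 31550 CPM against 82180 to 96900 CPM. The oligodendrocyte sums were 288, 258, 442 and 486 CPM against 231 to 261 CPM, so myelin transcripts were the higher in the libraries with more dendritic cell genes. Their part in the result was not tested.

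**Figure D5:**
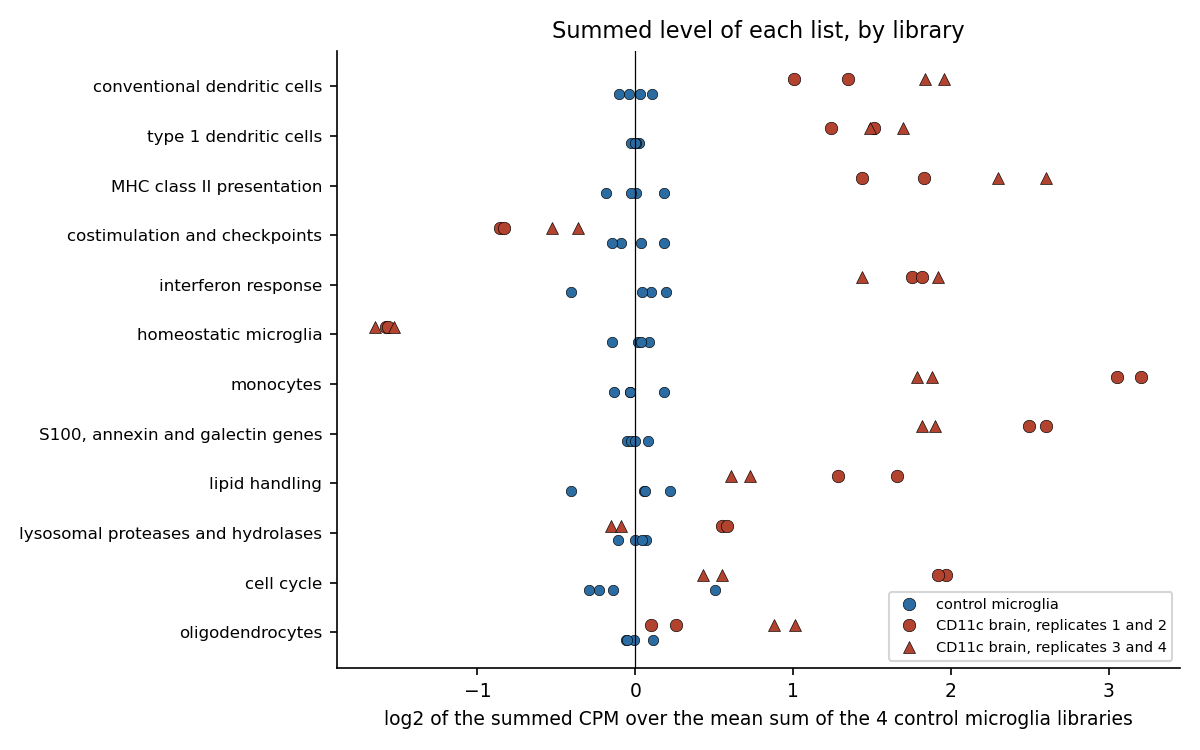
Log2 of the summed CPM of 12 gene lists over the mean control sum, by library, for control microglia (blue) and for CD11c replicates 1 and 2 (red circles) and 3 and 4 (red triangles). Triangles lie to the right of circles for conventional dendritic cell, MHC class II and oligodendrocyte genes, circles lie to the right for monocyte, lipid, lysosomal and cell cycle genes, and the 4 CD11c libraries lie together for homeostatic microglia genes.

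Each pair was also set against control microglia alone. With replicates 1 and 2 only, 10434 genes were called, and with replicates 3 and 4 only, 9420, against 9626 with all 4. Chil3, Spp1, Fn1, Ccr2, Cd74 and P2ry12 were called in the same direction in each, as were Itgax and Cx3cr1.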

How the data were processed

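Reads from stranded poly(A) libraries had been checked with FastQC 0.11.5 and aligned with STAR 2.5.3a to GRCm38, per the submitters' processing notes. The deposited values were whole-number counts per gene for 16 libraries. Not given in the sources used here were the counting program, its strand setting and the annotation release. Of 50600 genes, 50376 were matched to a name and position in GENCODE M21.

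Counts were filtered with filterByExpr by group and scaled by TMM, and edgeR 4.0.16 (R 4.3.3) fitted its quasi-likelihood test to all 16 libraries by group, with Benjamini-Hochberg adjustment over 16345 genes. DESeq2 1.42.0, limma 3.58.1 (voom), other scalings and filters, and fits without single libraries were the alternatives. The scripts were tested on simulated data with known changes.

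Genes were named by rule: among called genes whose groups did not overlap and whose higher group averaged at least 20 CPM, the 10 largest differences and 5 most abundant with a log2 difference of at least 2, in each direction, then up to 3 called members of each of 42 lists in the main direction and 1 in the other, with Itgax and Cx3cr1. Predicted, mitochondrial and antigen receptor genes were left out of the first part. Other list members were named after their values were seen. Members and lists were chosen with earlier results of these data known. Some genes that the rule names are not reported here.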

Additional observations from a re-analysis of the deposited data

Results flagged for a closer look

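In groups of 4 libraries, a highest or lowest value was singled out where its gap to the next library over the whole range exceeded Dixon's 95% critical value, which chance does in about 1 group in 20. This held in 31 of 452 groups with a level of at least 1 CPM, and the genes share libraries and are not independent.

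The mitochondrial share of counts was 2.01% in CD11c replicate 4 and 1.06% to 1.21% in the other CD11c libraries. CD11c replicate 1 stood apart from the other CD11c libraries for Ly6c2 (58.1 CPM, others 16.9 to 21.1) and Tgfb1 (341 CPM, others 286 to 293). CD11c replicate 2 stood apart from the other CD11c libraries for Blk (0.728 CPM, others 1.97 to 2.19) and P2ry13 (185 CPM, others 209 to 214). CD11c replicate 3 stood apart from the other CD11c libraries for Entpd1 (246 CPM, others 204 to 206), Jchain (11.8 CPM, others 0.577 to 2.3) and Sall3 (47.3 CPM, others 28.3 to 31.3). CD11c replicate 4 stood apart from the other CD11c libraries for Cd209f (1.77 CPM, others 0 to 0.221), Ifih1 (93.5 CPM, others 71.1 to 74.5) and Sat1 (757 CPM, others 508 to 542).

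Control microglia replicate 1 held 14 of the 20 values that stood apart in that group. Control replicate 1 was below the other control libraries for Bmp2 (12.8 CPM, others 27 to 28.9), Cd24a (0.75 CPM, others 2.02 to 2.05), Cfp (9.02 CPM, others 21.7 to 24.1), Clec10a (22.3 CPM, others 41.2 to 43.2), F13a1 (109.9 CPM, others 207 to 211), Fcgr4 (15.2 CPM, others 24.9 to 26.3), Ifit3 (6.4 CPM, others 11.8 to 12.7), Lyve1 (18.3 CPM, others 48.3 to 51.9), Mrc1 (290.5 CPM, others 522 to 562), Nlrc5 (15.6 CPM, others 21.1 to 21.7), Plin2 (46.7 CPM, others 54.3 to 54.6) and Tap1 (78.5 CPM, others 91 to 92). Control replicate 1 was above them for Ccl3 (1558 CPM, others 762 to 873) and Ccr7 (2.15 CPM, others 1.11 to 1.18). Control replicate 3 was above them for Birc5 (6.27 CPM, others 1.6 to 2.28), Ccnb2 (7.38 CPM, others 2.05 to 2.89), Cst7 (12.8 CPM, others 9.3 to 9.5) and Vegfa (28.1 CPM, others 8.3 to 11.4). Control replicate 4 was below the other control libraries for Gprasp2 (20.2 CPM, others 29.9 to 31.6) and Mef2c (472 CPM, others 518 to 520.1).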

How the results depend on the processing

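The number of genes called was 9626, and under every alternative tried it stayed within 1.5 times of that: 9979 with DESeq2, 9672 with limma-voom, 7966 of 14324 genes with the 8 libraries of the contrast, 9768 of 29525 genes with no filter and 8834 of 13579 with a strict one. Leaving out 1 library gave 8986 to 9994. Increases were 46.3% to 50.7% of calls. No paired analysis was possible because the 2 groups came from different mouse lines and shared no number in their titles. 1 CD11c library carries the same number as a splenic library, and the fit of all 16 treats them as independent. The fit of 8 leaves the splenic library out. Of 253 named genes 17 lost their call and 2 gained one under at least 1 alternative. No called gene changed sign. Among genes not called, Batf3 was 0.25 and F13a1 -1.37 with CD11c replicates 3 and 4 only, F13a1 was -0.14 with limma-voom and -0.30 to 0.62 without single libraries, lowest without CD11c replicate 1, and Tnf was 0.10 without control replicate 1 and down to -0.59 without CD11c replicate 4. With the 8 libraries, list medians turned to -0.00 for inflammatory mediators, -0.27 for Fc receptors and -1.37 for B cells. Without CD11c replicate 4 they turned to -0.04 for chemokines and 0.02 for transcription factors (ranges without single libraries -0.04 to 0.81 and -0.15 to 0.02), and with CD11c replicates 1 and 2 only to -0.21 for oligodendrocytes. The cause was not tested, except that fewer genes were tested with 8 libraries. With CD11c replicates 1 and 2 only and with 3 and 4 only, the MHC class II median was 1.35 and 2.60 and the cell cycle median 2.37 and 0.66. The border macrophage median was -0.14 with replicates 1 and 2 only and -2.25 with replicates 3 and 4 only. T cell genes called higher numbered 5 with limma-voom and 6 with 8 libraries, neutrophil genes 2 and 3, B cell genes 2 with 8 libraries, plasma cell genes 3 with no filter, endothelial genes 2 with CD11c replicates 1 and 2 only, and neuronal genes called lower 5 with the strict filter. Where control libraries held no counts of a gene, depth leaves only a lower bound for its fold.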

Other observations

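Transcripts of ribosomal protein genes held 0.84% to 1.54% of counts in CD11c libraries and 0.49% to 0.64% in control microglia, and mitochondrial transcripts 1.06% to 2.01% against 0.92% to 1.17%. CD11c libraries counted 16941 to 19482 genes at least once and control libraries 19377 to 21324. The part of these differences in the results was not tested.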
